A study of Mus musculus with 4 samples.

Results

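Mitral valves of mice heterozygous for a fibrillin-1 mutation (Het) were compared with a wild-type valve (WT). The comparison used 3 of the 4 oligonucleotide arrays of the series, chosen by their titles: the 2 Het arrays, whose genotype label reads Fbn1 C1039/+, and the 1 WT array, labelled Fbn1 +/+. The Het label leaves out the substituted residue; the label of the homozygous array (Hom) reads C1039G/C1039G. All arrays carried total RNA of murine mitral valve. The labels give no age, sex, strain or number of animals per array, and p-values then reflect the spread of these arrays, which may be technical. A gene was counted as different only when both Het arrays lay on the same side of WT, and both Het values are given, always in the order Het replicate 1, Het replicate 2. Fibrillin-1 itself was not analysed here.

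Fibrillin-1 is the glycoprotein that assembles into microfibrils outside the cell. Microfibrils scaffold elastin in elastic fibres, and they hold the latent complexes of transforming growth factor beta (TGF-beta) in the matrix. Mutations of the gene cause Marfan syndrome in humans, in which mitral valve leaflets thicken and prolapse. A mitral valve leaflet consists of interstitial cells in layers of collagen, proteoglycan and elastin under an endothelial sheet, and it is anchored in heart muscle.

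Values are deposited array intensities, which share 1 trimmed mean on all arrays. Of 20380 probe sets read as 1 gene, the 10398 whose mean over the 4 arrays reached the median of 62.6 were kept, and they covered 7314 genes. A gene with several such probe sets is represented by the one whose mean was highest. A listed gene is called measured only when it passed this filter, and some of the others were on the array below it. Differences are log2 differences after values under a floor of 19 were raised to it, so a difference of 1 is 2-fold, and intensities are not compared between genes. The defining transcripts of valve interstitial cells were present in every array (Dcn, which encodes decorin, read 13955 in WT and 14777 and 7034 in the Het arrays), and so were those of heart muscle (Myh6, the alpha myosin heavy chain, read 2226 in WT and 2066 and 1436 in the Het arrays). Het replicate 2 stood apart. It was at least 2-fold from WT at 463 genes against 136 for Het replicate 1, its SD of log2 differences from WT was 0.54 against 0.38, and its Actb 3' to 5' ratio, which rises as RNA degrades, was 3.04 against 2.16 to 2.25 on the other arrays. The same ratio for Gapdh separated it less, at 4.65 against 4.18 in WT, 3.84 in Hom and 3.19 in Het replicate 1. The Het arrays were 2-fold apart from each other at 592 genes, more than either was from WT. Both Het values are therefore printed throughout, and Het replicate 1 gives each result without Het replicate 2. Both Het differences are taken from the same WT array, so a high or low reading there moves both. In tissue RNA, fewer cells of a type and less RNA per cell cannot be told apart.

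The 2 genes furthest above WT in both Het arrays, Ppbp and Clec1b, were genes of platelets. Among genes with a mean intensity of at least 200 the 4 furthest below were Slc41a3, Mfap4, Ap1b1 and Eln, of which Mfap4 and Eln encode proteins of the elastic fibre. Of the 7314 genes, 1983 (27.1%) lay above WT in both Het arrays and 2106 (28.8%) lay below it in both, while at 3225 genes the arrays fell on opposite sides or 1 equalled WT. That split depended on the scaling: with arrays centred on their medians, which moved the median gene of Het replicate 2 from -0.05 to 0.19, the counts were 2593 above and 1526 below. At least 1.5-fold from WT in both were 98 genes on the higher side (1.34%) and 133 on the lower side (1.82%), or 157 and 85 after median centring. At least 2-fold were 22 higher (0.301%) and 19 lower (0.26%), or 26 and 11 after median centring and 26 and 14 after quantile normalization. At 40 of these 41 genes the gap between the Het arrays was smaller than the distance of the nearer Het array from WT. The 2-fold cut on the nearer Het array itself favoured this. Over all genes the difference between the Het arrays had an SD of 0.58 log2 units. A mean intensity below 200 was found at 20 of the 22 higher and 16 of the 19 lower genes, against 52.7% of all genes compared.

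With limma's moderated test and Benjamini-Hochberg adjustment, 0 genes (0%) passed an adjusted p of 0.05, and 101 passed an unadjusted 0.05, where 366 would be expected with no difference at any gene. The lowest adjusted p was 0.185, for Ppbp. That test drew its spread from the Het pair alone, with 1 residual degree of freedom, and assumed that the lone WT array varies like them. In 3 of 9 other settings, quantile normalization, the mean of a gene's probe sets and a trended robust prior, Ppbp and Clec1b passed, both higher in Het, with adjusted p for Ppbp between 0.00107 and 0.0191 there. In 5 settings that also kept 1 value per gene it lay between 0.0738 and 0.694. Clec1b passed the filter on level only through its Het values, since its WT and Hom readings were under 62.6, and with no filter its adjusted p was 0.81. Because 0 genes passed over all genes, the gene groups below are described by their values and counts, beside the same over all genes. No member of any list passed.

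**Figure D1:**
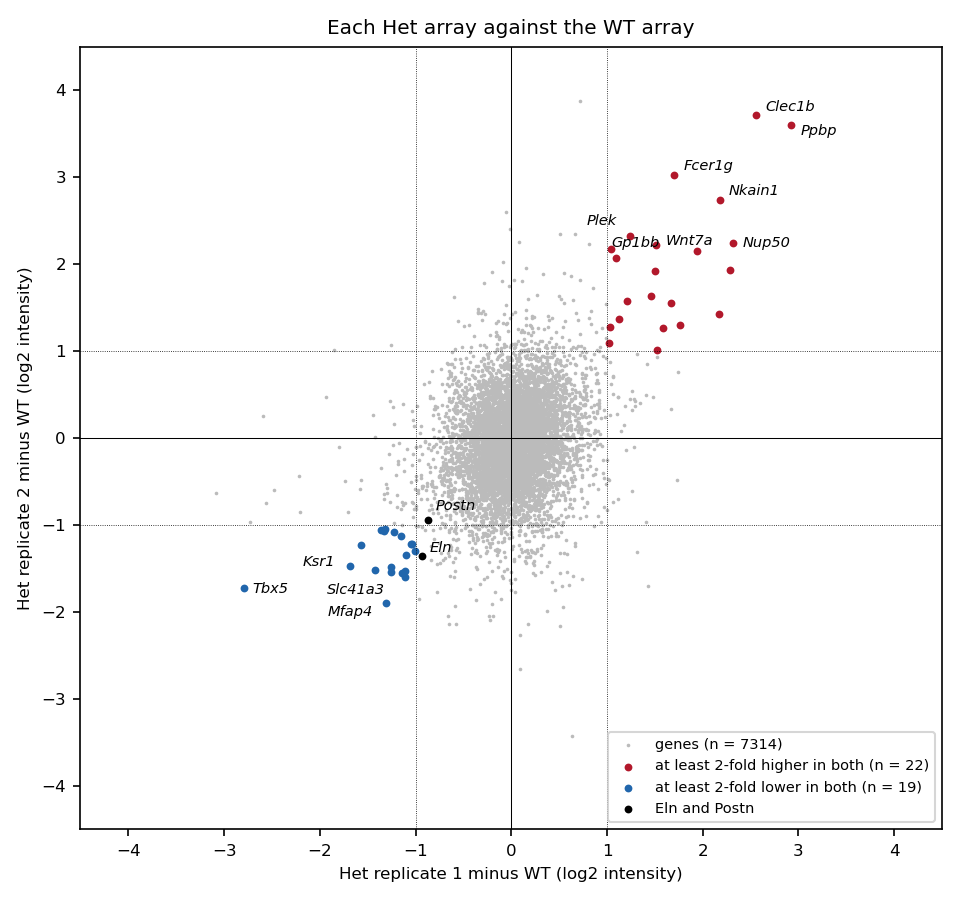
Difference of each Het array from the WT array in log2 intensity for 7314 genes, with Het replicate 1 on the x axis and Het replicate 2 on the y axis; dotted lines mark 2-fold. The 22 red and 19 blue points are at least 2-fold from WT on the same side in both arrays, and Ppbp and Clec1b lie furthest out on the higher side.

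Platelets are cell fragments shed by megakaryocytes, and they carry granules of chemokines and receptors for collagen and von Willebrand factor. Ppbp, the precursor of the platelet chemokine CXCL7, read 73.7 in WT and 559 and 896 in the Het arrays, and 87.6 in Hom. Both Het arrays lay far above WT, by 9.6-fold in their log2 mean (log2 difference 3.26, SE 0.46), and they differed from each other by 0.68 log2 units. Clec1b, the platelet receptor for podoplanin, read 24.1 in WT and 142 and 317 in the Het arrays (log2 difference 3.14, SE 0.53), and 48.6 in Hom. Its WT value was close to the floor of 19. Pf4, platelet factor 4, read 965 in WT and 1401 and 1999 in the Het arrays, and 721 in Hom. Ppbp and Pf4 are neighbours on chromosome 5, with starts 3917 bases apart.

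The proximal promoters of these 3 genes are printed because the genes lay above WT together. Each is 250 bases before the RefSeq start on GRCm38.p6, 5′ to 3′ on the gene's strand, with capitals for matches on either strand to 3 motifs, none of which overlapped another. The first motif was AGATAA, a form of the core read by zinc-finger factors of blood lineages. Next came GGAAGT, a core read by ETS factors. Last was TATAAA, the box that positions the start of transcription.
Ppbp, chr5:90768268-90768517 on the plus strand: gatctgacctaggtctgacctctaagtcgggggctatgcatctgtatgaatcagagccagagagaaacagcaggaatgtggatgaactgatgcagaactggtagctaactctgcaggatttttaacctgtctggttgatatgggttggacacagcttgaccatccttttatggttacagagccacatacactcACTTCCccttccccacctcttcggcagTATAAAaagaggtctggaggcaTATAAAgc
Pf4, chr5:90772185-90772434 on the plus strand: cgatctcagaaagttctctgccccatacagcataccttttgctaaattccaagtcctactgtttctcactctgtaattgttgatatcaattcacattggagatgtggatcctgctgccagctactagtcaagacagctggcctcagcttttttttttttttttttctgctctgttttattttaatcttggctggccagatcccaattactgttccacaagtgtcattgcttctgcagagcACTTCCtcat
Clec1b, chr6:129397047-129397296 on the plus strand: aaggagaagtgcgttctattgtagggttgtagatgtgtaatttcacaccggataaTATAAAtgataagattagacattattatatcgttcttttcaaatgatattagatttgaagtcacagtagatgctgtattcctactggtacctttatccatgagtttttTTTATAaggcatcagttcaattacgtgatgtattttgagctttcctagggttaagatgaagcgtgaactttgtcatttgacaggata
The Ppbp window held GGAAGT once in reverse, 57 to 52 bases before the start, and TATAAA at 30 to 25 and at 8 to 3 bases before it. The Pf4 window held GGAAGT in reverse at 10 to 5 bases before the start. The Clec1b window held TATAAA at 195 to 190 bases and in reverse at 87 to 82 bases before the start. AGATAA was in none of the 3 windows. Other forms of that core, such as the TGATAA in the Clec1b window, were not searched for. The window of Gp1bb, a further platelet gene above WT in both Het arrays, was searched too and held 0 matches to the 3 motifs. Over 32851 promoter windows of the same length, 9.99% held the first motif, 19.7% the ETS core and 12.4% the box. A match describes the letters only and is not a measured binding site.

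Of the 22 platelet genes listed, 15 were measured, and 11 of them lay above WT in both Het arrays and 1 below, against 27.1% and 28.8% of all genes. At least 1.5-fold higher in both were 5 of the 15 (1.34% of all genes), namely Ppbp, Clec1b, Plek, Gp1bb and Tbxa2r. The mean used by the filter included the Het arrays, so high Het values helped members such as Clec1b to pass. P2rx1, at 63.8 in WT and 48.3 and 43.8 in the Het arrays, fell under it. With no filter, 12 of the 18 platelet genes on the array lay above WT in both and 2 below. Over all genes these shares were then 20.9% and 28.2%. Plek encodes pleckstrin, a substrate of protein kinase C in platelets and leukocytes, and read 91 in WT and 215 and 457 in the Het arrays; its 2 other probe sets lay on the same side, with log2 differences of 1.58 and 2.07 for the first and 0.71 and 0.80 for the other. Gp1bb, a subunit of the von Willebrand factor receptor, read 58.8 in WT and 126 and 247 in the Het arrays. Tbxa2r, the thromboxane A2 receptor, read 39.5 in WT and 82.7 and 64.6 in the Het arrays, and was higher still in Hom, at 128. These receptors sit in the platelet membrane, whereas Pf4 and Ppbp are granule contents.

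Itga2b, the alpha subunit of the platelet fibrinogen receptor, read 143 in WT and 195 and 286 in the Het arrays. Treml1, a receptor of platelet granule membranes, read 117 in WT and 163 and 160 in the Het arrays. Gp5, another subunit of the von Willebrand factor receptor complex, read 70.7 in WT and 89.7 and 99.3 in the Het arrays. These 3 lay above WT in both Het arrays by less than 1.5-fold in at least 1. Gp9 was high in Het replicate 2 only, at 39.5 in WT and 41.9 and 189 in the Het arrays, and Vwf, which endothelial cells also make, lay slightly below WT in both, at 663 in WT and 630.2 and 586 in the Het arrays. The platelet list had medians of 0.48 and 1.0 in the Het arrays, where the median of all genes was 0.02 and -0.05, and the list's median in Hom was 0.39. Its summed intensity was 2801 in WT and 4324 and 6002 in the Het arrays, and 2873 in Hom. The erythroid list, with 4 of 18 listed genes measured, summed to 1482 in WT and 1401 and 3020.4 in the Het arrays, high in Het replicate 2 alone. The part of blood content in these differences was not tested.

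Genes of elastic fibres and microfibrils lay below WT in both Het arrays more often than above it. Of 22 listed, 18 were measured, with 12 below WT in both and 1 above in both (28.8% and 27.1% of all genes), and 4 were at least 1.5-fold lower in both (1.82% of all genes): Mfap4, Eln, Lox and Ltbp4. Mfap4, a microfibril-associated glycoprotein that binds elastin and fibrillin-1, read 897 in WT and 361 and 240.1 in the Het arrays, a 3.05-fold lower mean (log2 difference -1.61, SE 0.45). Eln, which encodes tropoelastin, the soluble precursor of elastin, read 3843 in WT and 2018 and 1501 in the Het arrays (log2 difference -1.14, SE 0.44). A second Eln probe set read 335, 56.6 and 16.3 in WT and the Het arrays and so was also lower in both, under the floor in Het replicate 2. For both genes Hom lay between WT and the Het arrays, at 543 for Mfap4 and 3258 for Eln.

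Ltbp4, a latent TGF-beta binding protein that also guides elastin assembly, read 641 in WT and 411 and 214 in the Het arrays. Lox, the lysyl oxidase that cross-links elastin and collagen, read 553 in WT and 317 and 355 in the Het arrays, and 539 in Hom, near WT. Fbln5, a fibulin that brings lysyl oxidase and tropoelastin together, read 1101 in WT and 755 and 873 in the Het arrays. Lox and Fbln5 lay further from WT in Het replicate 1 than in Het replicate 2, whereas Ltbp4 lay further in Het replicate 2. Fbln1, a fibulin of matrix fibres, read 528 in WT and 416 and 401 in the Het arrays, and the microfibril-associated Mfap5 read 414 in WT and 319 and 336 in the Het arrays. The log2 differences were -0.34 and -0.40 for Fbln1 and -0.38 and -0.30 for Mfap5, so the Het arrays were nearly equal for each.

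Fbn2, which encodes fibrillin-2, the second microfibril protein, read 517 in WT and 476 and 299 in the Het arrays. The lysyl oxidase relative Loxl1 read 819 in WT and 786 and 566 in the Het arrays. Each lay close to WT in Het replicate 1 and lower in Het replicate 2. Mfap2, another microfibril-associated glycoprotein, read 1409 in WT and 1717 and 1234 in the Het arrays, on opposite sides of WT. Ltbp3, a latent TGF-beta binding protein, was the 1 member above WT in both, at 1052 in WT and 1078 and 1360.1 in the Het arrays. The list medians were -0.21 and -0.55 in the Het arrays, and they stayed below the median of all genes under both other scalings of the arrays. Markers of interstitial cells and fibroblasts, which make these proteins, summed to 73054 in WT and 67987 and 44056 in the Het arrays, or 0.931 and 0.603 of WT. They were thus well below WT in Het replicate 2 only, and their part in the difference was not tested.

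The fibrillar collagens carry the tensile load of the leaflet. They lay below WT in both Het arrays at 8 of 8 measured genes of 9 listed (28.8% of all genes). The amounts differed between the arrays. Medians were -0.28 and -0.998 in the Het arrays, and 2 were at least 1.5-fold lower in both (1.82% of all genes). Col11a2 and Col11a1 encode chains of the minor fibrillar collagen XI of cartilage. Col11a2 read 93.1 in WT and 49.7 and 44.7 in the Het arrays, and Col11a1 176 in WT and 112 and 40 in the Het arrays. The main leaflet collagen I was further from WT in Het replicate 2, with Col1a1 at 1268 in WT and 931 and 584 in the Het arrays and Col1a2 at 9598 in WT and 7931 and 4510.1 in the Het arrays. Col3a1, the chain of collagen III, read 6139.5 in WT and 5747 and 3205 in the Het arrays, with log2 differences of -0.10 and -0.94. Col5a1 and Col5a2, the chains of the collagen V that nucleates fibrils, read 974 in WT and 841 and 646 in the Het arrays for the first and 4262 in WT and 3502 and 2890 in the Het arrays for the other. After quantile normalization or median centring 7 of the 8 were below WT in both.

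Among 15 other collagens 11 were measured, with 2 lying above and 7 below WT in both (27.1% and 28.8% of all genes) and 0 at least 1.5-fold from WT in both. Col9a1, a chain of a collagen that sits on fibril surfaces in cartilage, read 507 in WT and 349 and 288 in the Het arrays, the furthest below. Col6a1 and Col6a2, chains of the beaded collagen VI, were the 2 above WT in both, with Col6a1 at 1317 in WT and 1477 and 1532 in the Het arrays and Col6a2 at 1028 in WT and 1166 and 1926 in the Het arrays. The basement membrane list split, with 2 lying above and 4 below WT in both Het arrays (27.1% and 28.8% of all genes), or 3 and 2 after median centring, among 13 measured of 18 listed and medians of 0.04 and -0.16 in the Het arrays. The collagen processing enzymes also split, with 2 lying above and 4 below WT in both among 13 measured of 17 listed. Plod2, a lysyl hydroxylase of collagen, read 435 in WT and 192 and 362 in the Het arrays, low in Het replicate 1. Serpinh1, the collagen chaperone, read 773 in WT and 1312 and 732 in the Het arrays, high in Het replicate 1.

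Genes shared by cartilage, tendon and valve mostly lay below WT in both Het arrays. Of 22 listed only 9 passed the filter on level, and 8 of them lay below WT in both Het arrays (28.8% of all genes). At least 1.5-fold lower in both were 5 (1.82% of all genes), with list medians of -0.63 and -1.13 in the Het arrays. Acan, which encodes aggrecan, the large proteoglycan of cartilage, read 105 in WT and 47.5 and 48.2 in the Het arrays, and the Het arrays were nearly equal. Nppc, the C-type natriuretic peptide, read 134 in WT and 62.1 and 52.4 in the Het arrays. Tnmd, tenomodulin, a membrane protein of tendon and valve, read 144 in WT and 73.7 and 39.8 in the Het arrays, and 51.3 in Hom. Fmod, fibromodulin, a small proteoglycan that binds collagen fibrils, read 1011 in WT and 656 and 658 in the Het arrays, and 1067 in Hom. Fmod was thus nearly equal in the Het arrays, and Hom was near WT for Fmod and not for Tnmd. Comp, a cartilage matrix protein, was lower by less, at 245 in WT and 187 and 173 in the Het arrays. Mgp, the matrix inhibitor of calcification, read 11053 in WT and 10392 and 6598 in the Het arrays, near WT in Het replicate 1.

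The proteoglycan and hyaluronan list overlaps that one at Acan and Fmod. Of 25 listed 16 were measured, with 2 lying above and 8 below WT in both (27.1% and 28.8% of all genes). The small leucine-rich proteoglycans Prelp, Ogn, Lum and Bgn lay below WT in both, with Ogn (osteoglycin) at 1394 in WT and 937 and 1100.1 in the Het arrays and Lum (lumican) at 4416 in WT and 3644 and 2833 in the Het arrays. Dcn did not, since Het replicate 1 was slightly above WT. Vcan, versican, the main space-filling proteoglycan of the leaflet, read 1598 in WT and 1454 and 1544 in the Het arrays, near WT in both. Cd44, the cell-surface receptor for hyaluronan, went the other way, at 264 in WT and 524 and 768 in the Het arrays (log2 difference 1.27, SE 0.45).

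**Figure D2:**
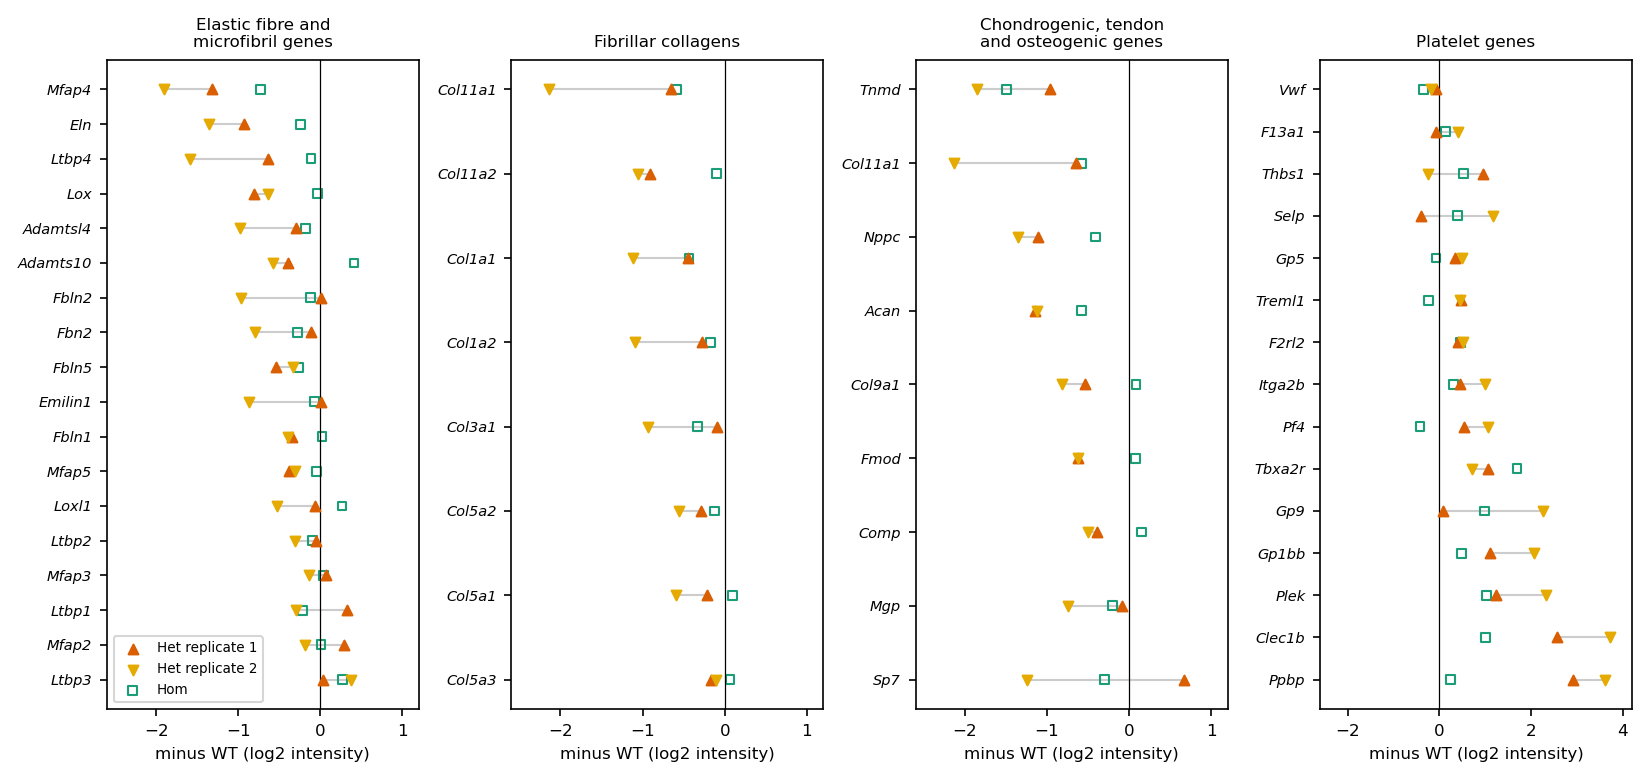
Difference from WT in log2 intensity (x axis) for each measured gene of 4 lists, for Het replicate 1, Het replicate 2 and Hom. In the 3 matrix lists most Het points lie left of 0, and all 8 fibrillar collagens do in both Het arrays; among platelet genes Ppbp and Clec1b lie furthest right, with Hom much nearer WT.

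Matricellular proteins, which signal to cells from within the matrix, were mixed, with 5 lying above and 6 below WT in both among 20 measured of 22 listed (27.1% above and 28.8% below over all genes). After quantile normalization 7 lay above and 5 below. Postn, periostin, a matrix protein abundant in valves, read 11204 in WT and 6125 and 5807 in the Het arrays, a 1.88-fold lower mean (log2 difference -0.91, SE 0.43). The Het arrays differed from each other by 0.08 log2 units, and Hom read 9182. Sparc, a collagen-binding glycoprotein, was lower by less, at 4174 in WT and 3063 and 3528 in the Het arrays. Thbs1 (thrombospondin 1) and Ccn2 (connective tissue growth factor) were each high in 1 Het array, with Thbs1 at 176 in WT and 342 and 147 in the Het arrays and Ccn2 at 800.1 in WT and 791 and 2079.8 in the Het arrays. Of the matrix proteases and their inhibitors 13 of 26 were measured, and 4 lay above and 6 below WT in both (27.1% and 28.8% of all genes). Timp1, a metalloprotease inhibitor, read 1028 in WT and 1688 and 3634 in the Het arrays (log2 difference 1.27, SE 0.52) and was the 1 member at least 1.5-fold higher in both. Hom read 1639.9, close to Het replicate 1. Mmp14, a membrane-bound metalloprotease that cleaves collagen, was lower, at 1964 in WT and 1424 and 1286 in the Het arrays.

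Of 24 TGF-beta ligands, receptors and transducers 18 were measured, with 1 lying above and 10 below WT in both (27.1% above and 28.8% below over all genes) and 1, Ltbp4, at least 1.5-fold lower in both. The Ltbp genes of this list were also counted among the elastic fibre genes. The ligands Tgfb1 and Tgfb2 lay below WT in both Het arrays, Tgfb1 at 109 in WT and 76.3 and 66.9 in the Het arrays and Tgfb2 at 253 in WT and 204 and 199 in the Het arrays. Tgfb3 read 249.6 in WT and 272 and 188 in the Het arrays, on both sides of WT. The type II receptor Tgfbr2 read 1446 in WT and 1289.8 and 1219 in the Het arrays and the type I receptor Tgfbr1 read 406 in WT and 369 and 386 in the Het arrays. Log2 differences were -0.52 and -0.71 for Tgfb1 but only -0.16 and -0.25 for Tgfbr2 and -0.14 and -0.07 for Tgfbr1.

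The 32 measured TGF-beta response genes of 36 listed lay on both sides of WT, with 6 lying above and 15 below WT in both (27.1% and 28.8% of all genes), 1 at least 1.5-fold higher in both (Timp1) and 3 at least 1.5-fold lower (Postn, Vegfa and Lox). The list overlaps the matrix lists above, at Timp1, Postn, Lox, Col1a1, Col1a2, Col3a1 and Bgn among others. Vegfa, the angiogenic growth factor, read 176 in WT and 98.2 and 74 in the Het arrays, and 109 in Hom. Of the contractile response genes, Tagln (transgelin) read 883 in WT and 1218 and 2058 in the Het arrays and Acta2 (smooth muscle actin) 2669 in WT and 2934 and 3771 in the Het arrays, above WT in both. Tpm1, a tropomyosin that heart muscle also makes, read 7779 in WT and 9111 and 3138 in the Het arrays, on both sides of WT. Skil, a repressor of Smad signalling, was lower mainly in Het replicate 1, at 731 in WT and 357 and 591 in the Het arrays. Smad7, the inhibitory Smad, was lower mainly in Het replicate 2, at 447 in WT and 402 and 176 in the Het arrays. List medians were -0.15 and -0.21 in the Het arrays.

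Bone morphogenetic proteins are a branch of the same family and act through Id genes. Of 22 listed genes 12 were measured, with 2 lying above and 2 below WT in both (27.1% and 28.8% of all genes). Fst, follistatin, a secreted antagonist of activins and of some bone morphogenetic proteins, was higher in both, at 110.4 in WT and 209 and 220.4 in the Het arrays, with Hom at 186. The targets Id1 and Id3 lay on opposite sides of WT, lower in Het replicate 1. Among insulin-like growth factor genes 8 of 12 were measured, with 1 lying above and 6 below WT in both (27.1% and 28.8% of all genes). Htra1, a secreted protease that cleaves matrix proteins and growth factor binding proteins, was bright and lower in both, at 1430.5 in WT and 868 and 727 in the Het arrays. Its second probe set read 1179.9, 692 and 594 in WT and the Het arrays, and Hom was also low (1035). The binding protein Igfbp6 was higher in both at a low level, at 39.2 in WT and 70 and 73.2 in the Het arrays, while Igf1 read 1996 in WT and 1755 and 1530 in the Het arrays and Igf2 5044 in WT and 4690.5 and 3108 in the Het arrays.

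Transcription factors of valve and cushion formation lay below WT in both Het arrays at 13 of 24 measured genes of 34 listed, and above it at 3 (28.8% and 27.1% of all genes). Tbx5, a T-box factor of heart development, was the lowest of all genes by the smaller of its Het differences, at 168 in WT and 24.3 and 50.6 in the Het arrays (log2 difference -2.26, SE 0.51), with Hom at 171. Only 1 of its probe sets passed the filter, and the other read 17.9, 28 and 3.40 in WT and the Het arrays, which does not give the same direction. Of the other 23 none was 1.5-fold from WT in both. Meox1, a homeobox factor of mesenchyme, read 554 in WT and 415 and 350.4 in the Het arrays, and Gata4 read 433 in WT and 352 and 281 in the Het arrays. Nfatc1, the endocardial regulator of valve formation, was nearer WT, at 473 in WT and 419.9 and 395 in the Het arrays. The 3 above WT were Prrx1, Snai1 and Snai2, factors of mesenchymal cells, with Snai2 at 54.3 in WT and 77.3 and 83 in the Het arrays. Klf2, which responds to blood flow in endothelium, was lower chiefly in Het replicate 2, at 1176 in WT and 1010.5 and 274 in the Het arrays.

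Among 12 measured Notch pathway genes 2 lay above and 5 below WT in both (27.1% above and 28.8% below over all genes), and Dll1, a Notch ligand, was the 1 at least 1.5-fold lower in both, at 459.5 in WT and 305 and 159 in the Het arrays. Among 20 measured Wnt pathway genes 6 lay above and 9 below WT in both (27.1% above and 28.8% below over all genes), or 8 and 6 after median centring. At least 1.5-fold from WT in both were 1 higher (Wnt7a) and 2 lower (Wif1 and Sfrp2), against 1.34% and 1.82% of all genes. Wif1, a secreted Wnt inhibitor, read 269 in WT and 104 and 129 in the Het arrays (log2 difference -1.21, SE 0.43). Sfrp2, a secreted frizzled-related protein, read 1081 in WT and 649 and 432 in the Het arrays, and Hom was near WT at 999. Wnt7a, a Wnt ligand, was higher from a low level, at 33.9 in WT and 96.4 and 158 in the Het arrays. The receptor Fzd6 was moderately higher, at 473 in WT and 671 and 778 in the Het arrays. Aldh1a3, an enzyme that makes retinoic acid, read 28.8 in WT and 59.5 and 129.6 in the Het arrays, and Cyp26a1, an enzyme that degrades it, read 522 in WT and 293 and 307 in the Het arrays.

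The remaining genes with the highest values in both Het arrays were mostly dim in WT. The filter on level used the mean over all arrays, Het included, so high Het values helped such genes to pass it. WT read under the filter's 62.6 at Nup50, Nkain1, Pi4k2a, Dus1l and Fcer1g. Nup50, a nucleoporin, read 21.5 in WT and 107 and 102 in the Het arrays, but its second probe set that passed the filter gave log2 differences of 0.11 and 0.75. Nkain1, a protein that binds the sodium pump, read 19.5 in WT and 88.1 and 131 in the Het arrays. Its other probe sets, under the filter, read 22.1, 20.8 and 22 and then 11.3, 12.6 and 34.5 in WT and the Het arrays. After flooring, neither of these lay above WT in both. Pi4k2a, a phosphatidylinositol kinase, and Dus1l, a tRNA dihydrouridine synthase, were under the floor in WT, so they were at least 3.84-fold and at least 3.82-fold higher in the nearer Het array. Pi4k2a read 18.7 in WT and 72.9 and 84.2 in the Het arrays, and Dus1l 16.8 in WT and 92.8 and 72.6 in the Het arrays. The second Dus1l probe set gave log2 differences of 0.23 and 0.56. Fcer1g, the signalling chain that Fc receptors and the platelet collagen receptor share, read 34.6 in WT and 112 and 283 in the Het arrays. Hom lay above WT as well at Nup50 (87.7), Nkain1 (97.4), Pi4k2a (109.7) and Dus1l (94.9). The Het arrays were not set apart from Hom at most of the genes 2-fold from WT: at least 2-fold from Hom as well, in both Het arrays and on the same side, were 2 of the 22 higher genes (Ppbp and Clec1b) and 4 of the 19 lower ones (Tbx5, Slc41a3, Chmp1a and Leng8).

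Aldh16a1, an aldehyde dehydrogenase relative, read 28.4 in WT and 90.2 and 83.2 in the Het arrays, and 50.5 in Hom. Like Clec1b, it passed the filter on level only through its Het values, since WT and Hom were under 62.6. Pkmyt1, an inhibitory kinase of mitotic entry, read 30.3 in WT and 85.5 and 115 in the Het arrays, with log2 differences of 0.62 and 0.20 by its other probe set. Tmem87a, a Golgi membrane protein, read 77 in WT and 212 and 239 in the Het arrays. The Het arrays lay close together for Aldh16a1 and Tmem87a. Cracr2b read 32.6 in WT and 147 and 87.8 in the Het arrays, Cby1, a beta-catenin antagonist, 32.7 in WT and 111 and 80.6 in the Het arrays, and Actg2, a smooth muscle actin, 37.2 in WT and 112 and 89.6 in the Het arrays. These 3 were higher in Het replicate 1 than in Het replicate 2. Brighter genes higher in both were Rcan1, an inhibitor of calcineurin, at 245 in WT and 476 and 472 in the Het arrays, and Yipf1, a Golgi protein, at 357 in WT and 595 and 598 in the Het arrays. The dimmer Rcan1 probe set, under the filter, read 24.2 in WT and 45.7 and 5.2 in the Het arrays, on both sides of WT. Anxa8, an annexin, read 203 in WT and 368 and 673 in the Het arrays, and Tnfrsf12a, the receptor of the cytokine TWEAK, read 262 in WT and 458 and 681 in the Het arrays. Their second probe sets gave log2 differences of 0.56 and 0.77 for Anxa8 and 0.38 and 0.99 for Tnfrsf12a, on the same side. Supt20 read 144 in WT and 241 and 285 in the Het arrays by a probe set that may also bind related transcripts, and its 2 dimmer probe sets, under the filter, did not lie above WT in both.

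On the lower side, Ksr1, a scaffold of the Ras kinase cascade, read 132 in WT and 41 and 47.4 in the Het arrays, by a probe set that may also bind related transcripts. Slc41a3, a magnesium transporter, read 346 in WT and 129 and 121 in the Het arrays, and Hom was near WT at 322. Its other probe set that passed the filter gave log2 differences of -0.20 and -0.82. Ap1b1, a subunit of the clathrin adaptor, read 438 in WT and 147 and 186 in the Het arrays, and Hom was as low as the Het arrays at 199.8. Tle5, a Groucho-family corepressor, read 218 in WT and 91.1 and 77.9 in the Het arrays, and Chmp1a, a membrane scission protein, read 206 in WT and 93.4 and 70.5 in the Het arrays. In both the Het arrays lay close together and below WT and Hom (171 and 211). Pygm, muscle glycogen phosphorylase, read 106 in WT and 44.6 and 36.5 in the Het arrays.

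Pitpnb, a phosphatidylinositol transfer protein, read 129 in WT and 59.9 and 42.7 in the Het arrays, and was lower still in Hom (37.3). Leng8 read 89.5 in WT and 41.6 and 31.1 in the Het arrays, and was highest in Hom (129). Grasp, a scaffold protein of receptor trafficking, read 124 in WT and 53 and 58.4 in the Het arrays, and Jup, the junction protein plakoglobin, 94.5 in WT and 37.7 and 45.2 in the Het arrays. With these the 15 genes furthest below WT are named, since Acan and Nppc stand above among the cartilage genes and Wif1 among the Wnt genes. Brighter genes lower in both were Ip6k1, an inositol phosphate kinase, at 578 in WT and 345 and 213 in the Het arrays, Igtp, an interferon-induced GTPase, at 349.6 in WT and 159 and 210.2 in the Het arrays, and Capn5, a calpain protease, at 335 in WT and 202 and 200.3 in the Het arrays. Ip6k1 and Igtp were also low in Hom (217 and 177), and Capn5 was not (394). The other Capn5 probe set gave log2 differences of -0.04 and -0.84. The brightest Ip6k1 probe set under the filter read 60.6 in WT and 63.6 and 73.4 in the Het arrays, above WT in both. Of its dimmer probe sets, the first lay on both sides of WT (30.7, 7.7 and 35.7 in WT and the Het arrays). The next lay below WT in both (32.3, 22.9 and 16.9), and the last was under the floor in WT and both Het arrays.

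Agreement between probe sets was a further check on single genes. Of 2167 genes with 2 or more probe sets past the filter, 154 had all of them above WT in both Het arrays and 190 all below. At least 1.5-fold in every probe set and both arrays were 2 higher genes, Plek and Slc2a3, and 3 lower ones, Eln, Htra1 and Fmo2. Slc2a3, a glucose transporter of platelets, leukocytes and neurons, read 69.8 in WT and 162 and 208 in the Het arrays and by its other probe set 45.8, 72.6 and 171 in WT and the Het arrays. Fmo2, a flavin-containing monooxygenase, read 117 in WT and 68.1 and 34.2 in the Het arrays and by its other probe set 99.9, 63.3 and 53.7. Both probe sets of Slc2a3, the brighter one of Fmo2 and the second one of Htra1 are of types that may also bind related transcripts. The same holds for the probe sets that represent Mcm2 and Jup. It holds too for the other probe sets of Anxa8, Tnfrsf12a, Dus1l and Slc41a3 that passed the filter.

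**Figure D3:**
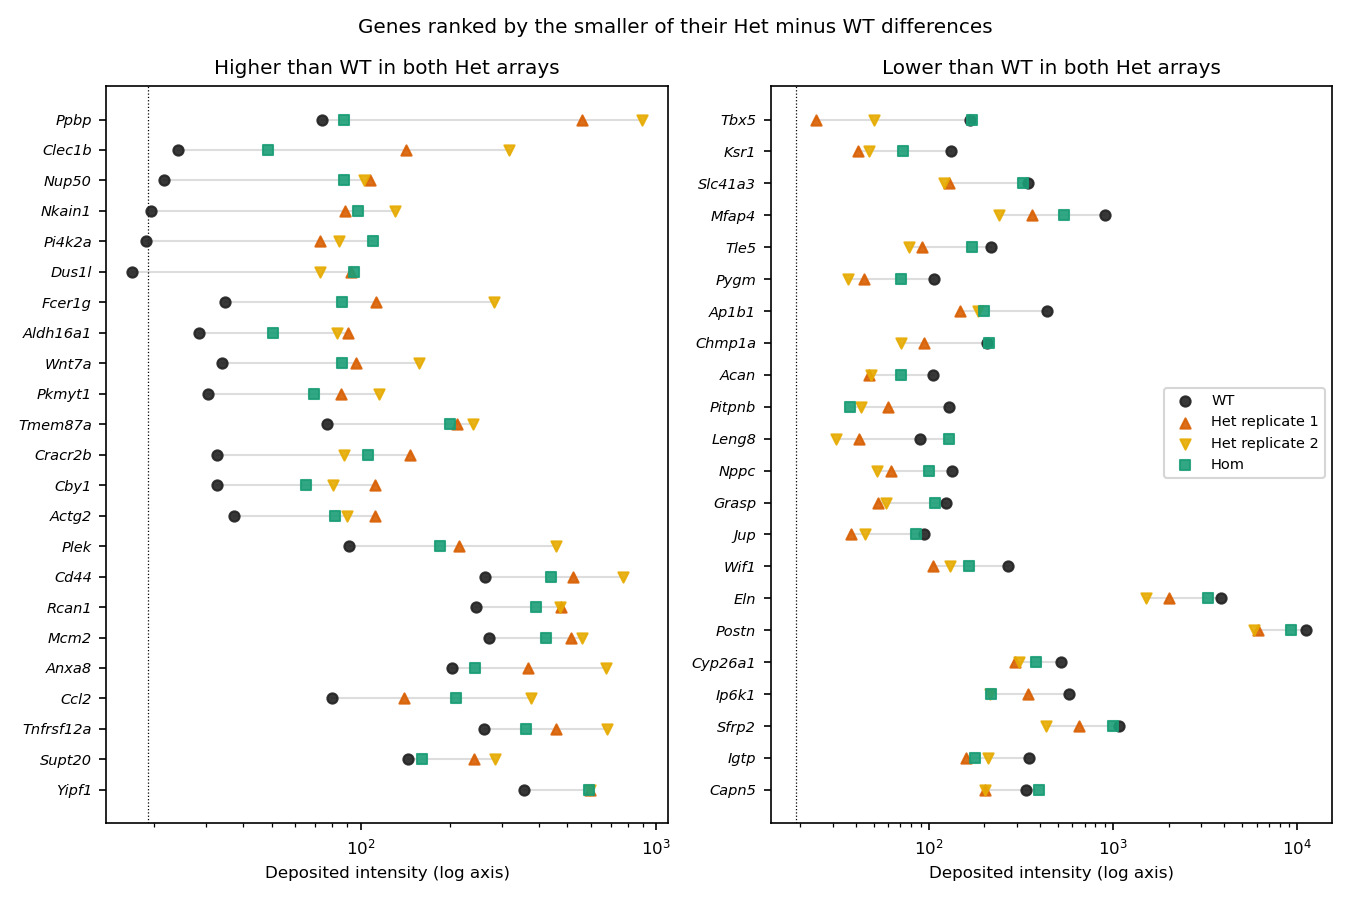
Deposited intensity on a log axis for the genes ranked highest (left) and lowest (right) by the smaller of their Het minus WT differences, first the 15 of all genes and then those of mean intensity at least 200 that were not among them; the dotted line is the floor of 19. Ppbp and Clec1b show the widest gap between WT and the nearer Het array on the left and Tbx5 on the right, and Hom lies nearer WT than the Het arrays do at all 3.

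Cell cycle genes lay above WT in both Het arrays at 32 of 53 measured genes of 60 listed and below it at 6 (27.1% and 28.8% of all genes). Medians were 0.19 and 0.26 in the Het arrays, and 2 genes were at least 1.5-fold higher in both (1.34% of all genes). Mcm2, a subunit of the replicative helicase, read 270.3 in WT and 516 and 558 in the Het arrays, but its second probe set gave log2 differences of 0.42 and 0.10. Cdc45, which loads with that helicase, read 71 in WT and 121 and 117 in the Het arrays. Rfc4, a subunit of the clamp loader, read 59.8 in WT and 87.5 and 92.3 in the Het arrays. Gmnn, geminin, which blocks helicase loading, lay below WT, at 195 in WT and 136 and 145 in the Het arrays. The direction of the medians was the same after quantile normalization and median centring.

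Other cell-state lists had members on both sides of WT. Hypoxia and glycolysis genes had 6 lying above and 6 below WT in both among 17 measured, with Slc2a3 higher and Vegfa and the lactate transporter Slc16a3 (77.6 in WT and 49.9 and 33 in the Het arrays) lower by at least 1.5-fold in both. Immediate early genes had 3 lying above and 9 below WT in both among 17, and Atf3, a stress-induced transcription factor, was the 1 at least 1.5-fold higher, at 57.3 in WT and 87.8 and 91.9 in the Het arrays. Heat shock genes had 7 lying above and 6 below WT in both among 19, with Hspb1, a small chaperone, at 824 in WT and 1134 and 1707 in the Het arrays. Oxidative phosphorylation genes had 4 lying above and 8 below WT in both among 40, ribosomal protein genes 4 lying above and 14 below WT in both among 30, and apoptosis genes 4 lying above and 2 below WT in both among 17. Over all genes 27.1% lay above and 28.8% below. The balance of these counts turned with the scaling, since median centring gave 6 above and 5 below for immediate early genes and 9 and 7 for oxidative phosphorylation genes, and quantile normalization gave 6 and 5 for ribosomal protein genes. None of the members of the heat shock, oxidative phosphorylation, ribosomal and apoptosis lists was 1.5-fold from WT in both Het arrays.

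The macrophage, MHC and interferon lists had medians on opposite sides of 0 in the Het arrays. Macrophage and myeloid genes had medians of -0.16 and 0.63 in the Het arrays. Among 23 measured 6 lay above and 1 below WT in both (27.1% and 28.8% of all genes). Fcer1g was the 1 at least 1.5-fold higher in both (1.34% of all genes). Lyz2, lysozyme, read 314 in WT and 322 and 858 in the Het arrays, near WT in Het replicate 1. The MHC class II and antigen processing list had medians of -0.31 and 0.21 in the Het arrays. Within it H2-Ab1, a class II beta chain, was higher in both, at 66.7 in WT and 137 and 162 in the Het arrays, but its partner H2-Aa read 590.5 in WT and 463 and 1598 in the Het arrays, on both sides of WT. Ccl2, a chemokine that attracts monocytes, read 79.9 in WT and 140.1 and 376 in the Het arrays, and 209 in Hom.

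C3ar1, a complement receptor, was higher in both, at 95.6 in WT and 178 and 160.2 in the Het arrays, while the other 9 measured complement genes were within 1.5-fold of WT in at least 1 Het array. Interferon-stimulated genes had medians of -0.46 and 0.02 in the Het arrays, and 1 of 10 was at least 1.5-fold lower in both, Igtp (1.82% of all genes). Gbp2, another interferon-induced GTPase, read 92.2 in WT and 53.3 and 62.6 in the Het arrays. Chemokines had 3 lying above and 3 below WT in both among 8 measured of 31 listed (27.1% above and 28.8% below over all genes). Only 1 of 16 neutrophil genes and 2 of 20 lymphocyte genes passed the filter on level, so neither cell type is described.

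Markers of the structural cell types differed between the arrays, and their counts below stand against 27.1% above and 28.8% below over all genes. Cardiomyocyte markers, all 37 measured, summed to 70559 in WT and 89171 and 32822 in the Het arrays, and to 70628 in Hom. The Het arrays thus lay on opposite sides of WT, and only Hspb7, a small heat shock protein of heart, was 1.5-fold lower in both, at 357 in WT and 226 and 86.1 in the Het arrays. Endothelial markers had 2 lying above and 10 below WT in both among 20, with medians of -0.04 and -0.53 in the Het arrays. Smooth muscle and myofibroblast markers had 6 lying above and 3 below WT in both among 13, and Actg2 alone was 1.5-fold higher in both. Interstitial and fibroblast markers had 3 lying above and 12 below WT in both among 19. Pi16, a fibroblast marker, was lower in both, at 259 in WT and 113 and 149 in the Het arrays, and S100a4 was higher in both, at 359 in WT and 568 and 1831 in the Het arrays.

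Melanocytes are resident in mouse valves, and their genes had 1 lying above and 4 below WT in both among 9 measured. Kit, the receptor that melanocytes and mast cells carry, was the 1 at least 1.5-fold lower in both, at 173 in WT and 115 and 84.1 in the Het arrays, whereas Dct, an enzyme of melanin synthesis, read 543 in WT and 469 and 744 in the Het arrays, on both sides of WT. Epicardial markers had 3 lying above and 0 below WT in both among 5. Adipocyte markers had 1 lying above and 3 below WT in both among 7, and their sum was 2974 in WT and 2841 and 1468 in the Het arrays. Nerve and glial markers had 1 lying above and 4 below WT in both among 9. The summed levels of the cardiomyocyte, adipocyte and erythroid markers were 1.26 and 0.465, 0.955 and 0.494 and 0.945 and 2.04 of WT in the Het arrays. Het replicate 1 was nearer WT than Het replicate 2 in each, although 28 of the 37 cardiomyocyte markers lay above WT in it and 6 of them by at least 1.5-fold. Their part in the other differences was not tested.

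**Figure D4:**
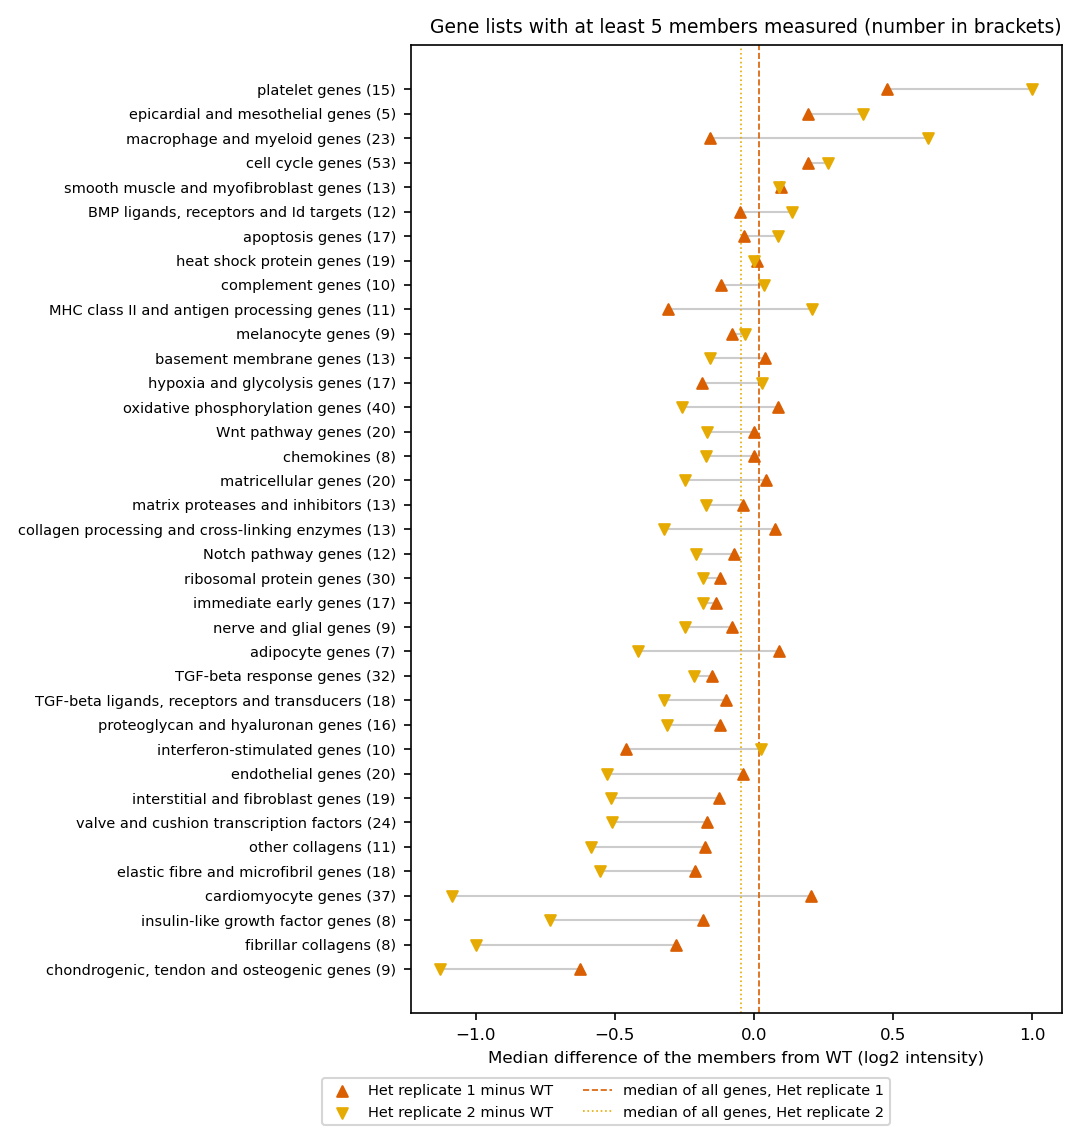
Median log2 difference from WT of the measured members of each gene list, for Het replicate 1 and Het replicate 2, with vertical lines at the median of all 7314 genes in each array. At the deposited scaling plotted, platelet genes lie furthest right and chondrogenic, tendon and osteogenic genes furthest left in both arrays, whereas the medians of cardiomyocyte and of macrophage genes lie on opposite sides of 0 in the Het arrays.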

How the data were processed

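The deposited table gave linear intensities per probe set for 4 arrays; the authors' software and scaling step are not given in the sources used here, but the 4 trimmed means (2% left out at each end) were equal within 0.01. Of 22690 probe sets, 64 were controls, 20393 had 1 gene symbol in the platform annotation, 691 several and 1606 none; 20351 of the 20380 used matched a RefSeq gene. Intensities were floored at the 25th percentile (19) and log2 transformed, and probe sets with a mean under the median (62.6) were left out. limma 3.58.1 in R 4.3.3 (lmFit, eBayes, Benjamini-Hochberg) compared Het with WT, tested on simulated data first. Its adjusted p values rest on 1 residual degree of freedom. Alternatives were median centring, quantile normalization, other filters, a pseudocount of 16, other uses of probe sets, another prior, a fit with Hom and leaving out each Het array.

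Genes were ranked by the smaller of their Het minus WT differences, both on the same side. Named were the 15 highest and lowest, the 10 highest and lowest of mean intensity at least 200, genes whose probe sets all lay at least 1.5-fold away, and from each of 40 gene lists the 3 highest and lowest members, those at least 1.5-fold away in both arrays and those that define the list. A few more list members were named after their values were seen (such as Vcan, Dcn, Tgfb3, Nfatc1, Klf2 and Mgp), and so was Aldh1a3 from outside the lists. The genes compared and the lists were chosen with earlier results of these data known. Precision is limited by having only 3 arrays in the comparison. Some genes were not analysed here.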

Additional observations from a re-analysis of the deposited data

How the results depend on the processing

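Counts of genes at least 2-fold from WT in both Het arrays (22 higher and 19 lower) moved with the filter on level and, more, with 1 Het array left out. They were 57 and 95 without a filter, 4 and 3 with a filter at the 75th percentile, and 14 and 8 with a pseudocount of 16 in place of the floor. Median centring gave 11 lower genes, all 11 among the 19, and reading every probe set on its own gave 30. Genes above WT in both were 1122 and below 983 with the filter at the 75th percentile, and 3494 lay below without a filter; these filters test fewer or more genes. With 1 Het array left out the counts refer to the other alone and have no test: they ranged from 57 to 181 for 2-fold higher, 71 to 279 for 2-fold lower, 3388 to 3825 for above and 3452 to 3936 for below. Both 2-fold counts were smaller without Het replicate 2. Under all 3 scalings 21 genes were 2-fold higher and 11 lower. limma called 2 higher genes after quantile normalization, 2 with the mean of probe sets and 2 with a trended robust prior, and 0 in the other alternatives; the cause was not tested.

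Of 147 named genes 134 kept the sign of their mean difference in every alternative run, and the exceptions were genes on both sides of WT, Tgfbr1 and Vcan. Of 40 lists only 18 kept the sign of their median. Those that changed sign included the basement membrane, collagen processing, matricellular, bone morphogenetic protein, macrophage, MHC and interferon lists. The complement, chemokine, hypoxia, cardiomyocyte, adipocyte and oxidative phosphorylation lists did so too. For these lists the Het arrays, each read alone, put the median on opposite sides of WT. No paired analysis was possible because WT is 1 array and carries no replicate number. With 1 WT array, a high or low WT reading cannot be told apart from a difference in Het.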

Other observations

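Several brightly read genes outside the lists were at least 1.5-fold from WT in both Het arrays, and they were picked after their values were seen. Thbd, thrombomodulin, the anticoagulant receptor of endothelium, read 931 in WT and 561 and 496 in the Het arrays, and 737 in Hom. Sulf2, which trims sulphate from heparan sulphate chains in the matrix, read 369.5 in WT and 199 and 244 in the Het arrays, and Olfml2b, a secreted matrix protein, read 709 in WT and 468 and 466 in the Het arrays. Hom was near WT for both (352 and 762). Lifr, the receptor of leukaemia inhibitory factor, read 283 in WT and 179 and 182 in the Het arrays, and Hom was as low, at 169. Slc38a1, a glutamine transporter, read 425 in WT and 271 and 268 in the Het arrays.

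On the higher side, Ctps, which makes CTP, read 259.7 in WT and 400.5 and 528 in the Het arrays, and Prps1, which makes the ribose donor of nucleotides, read 141 in WT and 220.3 and 290.3 in the Het arrays. Idh1, the cytosolic isocitrate dehydrogenase, read 334 in WT and 554 and 696 in the Het arrays. Slc25a20, the carnitine carrier of mitochondria, read 317 in WT and 539 and 482 in the Het arrays, and Hom read 529. No gene in these paragraphs passed an adjusted p of 0.05 with limma.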
